A study of Mus musculus with 12 samples.

Results

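The step from the multipotent progenitor to the lymphoid progenitor of the bone marrow (BM) was compared in young adult mice, as RNA sequencing of Ly6d- common lymphoid progenitors (CLPs) against Flk2+ multipotent progenitors (MPPs) at 3 months (3MO) of age. The comparison used 6 of the 12 libraries of the series, chosen by their labels, with 3 of 3MO CLPs and 3 of 3MO MPPs, and the 6 libraries of the same cell types at 1 month (1MO) were used beside them. All animals were wild-type mice of the strain labelled C57BL6/J, and the labels name no transgene, deletion or treatment in any group. The cells came from lineage-depleted BM of the long bones and were purified by flow cytometry, so that no group holds a mature population by design. By the study's methods both populations were sorted mouse by mouse, so that a CLP and an MPP library may share a mouse, but neither methods nor labels tie the replicate numbers to mice. P-values measure the spread between these libraries, which may in part be technical.

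Flk2+ MPPs can still give rise to myeloid and lymphoid cells, carry the stem cell factor receptor Kit at a high level and have begun to express the cytokine receptor Flk2, encoded by Flt3. CLPs are their progeny: they have acquired the receptor for interleukin-7 and lowered Kit, and the subset without the surface protein Ly6d keeps the potential for T, B, NK and dendritic cells, whereas the Ly6d+ subset is biased to the B lineage. Both populations are studied here as the BM sources of the cells that seed the thymus. In bulk RNA a lower level of a transcript can mean fewer cells that hold it or less of it in each cell, and these cannot be told apart in any result below.

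The totals of the estimated counts were 10302160 to 18420363 in the CLP libraries and 9509589 to 13544672 in the MPP libraries, and 12379 to 14657 genes had a count. No pair of libraries was identical. One library stood apart: 3MO MPP replicate 1 held 48 genes at least 4-fold above and 96 genes at least 4-fold below both other MPP libraries, among 10534 genes with a mean of at least 5 CPM in MPPs (counts scaled to a common library depth, with 1 CPM added), where the other 5 libraries held 2 to 13 and 4 to 22 such genes within their groups. Its correlation with the other MPP libraries over the log2 CPM of 13367 genes was 0.903 and 0.896, against 0.958 between those 2 and 0.921 to 0.934 among CLPs. The summed level of 20 immediate early and heat shock genes, which respond to handling of cells, was 1915 CPM in CLP replicate 1 and 1929 CPM in MPP replicate 1, and 482 to 686 CPM in the other 4 libraries, as the bars by library show. List counts are given below with all libraries, and also without MPP replicate 1 where that changed the number of calls by edgeR. A fold change is followed by its value without a library where leaving that library out moved the fold by over 1.5 times.

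**Figure D1:**
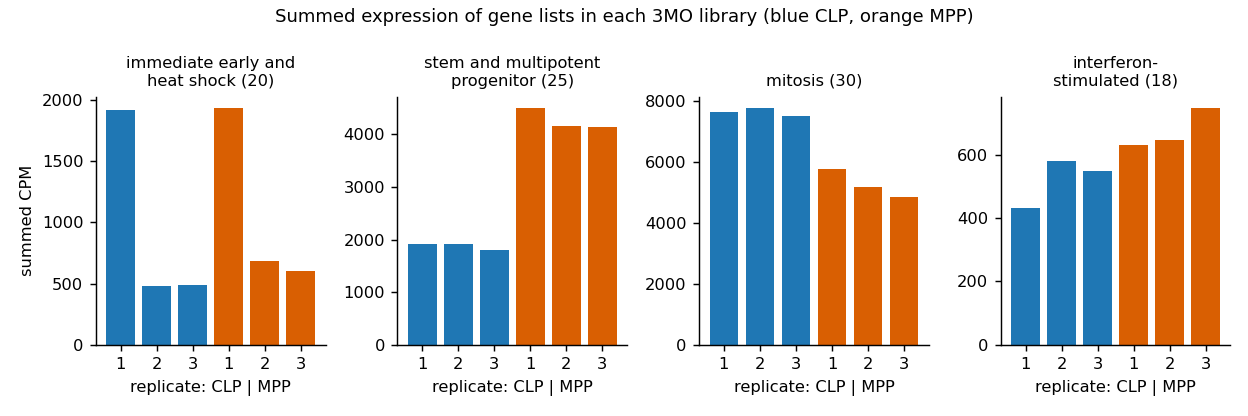
Summed CPM (read counts scaled to library depth) of 4 gene lists in each 3MO library, with CLP libraries in blue and MPP libraries in orange, 1 bar a library, and the number of genes summed in each panel's title. Immediate early and heat shock genes are high in replicate 1 of both cell types (1915 and 1929 CPM), stem and multipotent progenitor genes reach 1798 to 1921 CPM in CLPs and 4136 to 4490 CPM in MPPs, and mitosis genes 7504 to 7751 CPM in CLPs and 4856 to 5750 CPM in MPPs.

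Levels are CPM after TMM normalization, which scales libraries for depth but not for gene length, so they are compared between groups and not between genes. Log2 fold changes are CLPs relative to MPPs. Of 13367 genes tested, 812 differed between the cell types, which is 6.07% of the genes tested. A gene was called where the quasi-likelihood p of edgeR, adjusted by Benjamini-Hochberg over all genes tested, was under 0.05. In CLPs 365 genes were higher (2.73%) and in MPPs 447 (3.34%). The groups did not overlap, with every CLP library above every MPP library, in 1350 genes (10.1% of those tested), and with every CLP library below in 1566 (11.7%). Without MPP replicate 1, 669 genes were called, 306 higher in CLPs and 363 higher in MPPs; 584 of them were among the 812, none of these in the opposite direction. A difference of at least 2-fold was reached by 230 of the genes called higher in CLPs and 375 of those called higher in MPPs. By annotation 352 and 426 of the called genes code for protein, and among 301 long intergenic RNAs tested 5 were higher in CLPs and 12 in MPPs.

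**Figure D2:**
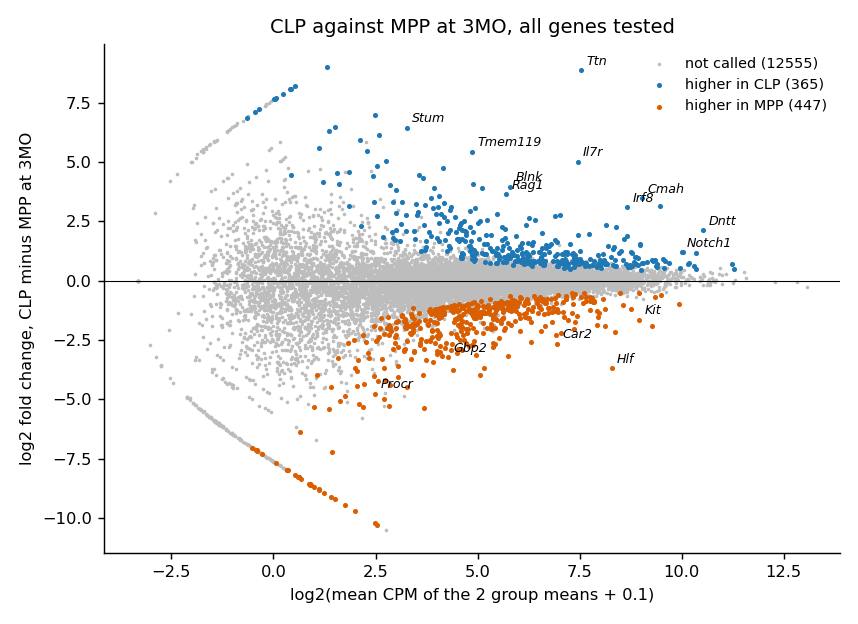
Log2 fold change of CLPs relative to MPPs at 3MO against the mean level of the 2 group means (log2 CPM, 0.1 added) for the 13367 genes tested, 1 point a gene, in blue where called higher in CLPs (365), in orange where called higher in MPPs (447) and in grey where not called. The curved lines of points at the left are genes with no count in one group, whose fitted fold depends on the prior count, and Ttn at the upper right rests on 1 CLP library.

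The surface proteins of the sort were read first, and since the gates chose the cells by these proteins their transcripts check the labels and are not a finding. Il7r, the interleukin-7 receptor α chain (chr15:9505788-9530176 on GRCm38), was at 357, 299 and 363 CPM in the CLP libraries and 7.72, 10.6 and 12.8 CPM in the MPP libraries. The lowest CLP library was above the highest MPP library by an order of magnitude (log2 fold change 5.02, SE 0.37, adjusted p = 2.2e-06 in edgeR). Kit, at chr5:75574916-75656722, was at 267, 236 and 222 CPM in the CLP libraries and 760.1, 792 and 723 CPM in the MPP libraries, so that CLPs were lower in every library (log2 fold change -1.65, adjusted p = 3.3e-05 in edgeR). Ly6a, which encodes Sca-1, was also lower in CLPs, at 1.01, 4.59 and 3.56 CPM in the CLP libraries and 7.19, 22.8 and 37.8 CPM in the MPP libraries (adjusted p = 0.01 in edgeR), and leaving out a library moved the log2 fold change of Ly6a from -2.86 to -2.27 without MPP replicate 3. Flt3 was at 1466, 1484 and 1437 CPM in the CLP libraries and 1363, 1355 and 1236 CPM in the MPP libraries, a log2 difference of 0.15 with SE 0.12 that did not pass the test (adjusted p = 0.59 in edgeR), although no library overlapped with the other group. Cd27, the TNF receptor family member shared by both gates, was at 125, 113 and 116 CPM in the CLP libraries and 175, 149 and 135 CPM in the MPP libraries and did not pass either (adjusted p = 0.19, edgeR). Transcripts of Ly6d were few, at 5.55, 3.32 and 1.03 CPM in the CLP libraries and 0, 0.0719 and 0.283 CPM in the MPP libraries, and the difference did not pass (adjusted p = 0.057, edgeR). The 8 lineage depletion antigens summed to 35.2 to 62.2 CPM in CLPs and 71.2 to 92.7 CPM in MPPs, most of it Itgam.

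Most genes of the lymphoid progenitor list were higher in CLPs: of 15 tested, 9 were called higher in CLPs and 3 higher in MPPs, against 2.73% and 3.34% of all genes tested. The 9 include Il7r, whose protein was used for the sort. The median log2 fold change was 0.83 against -0.03 over all genes tested. Rag1, the catalytic subunit of the V(D)J recombinase, at chr2:101638282-101649501, was at 79.8, 83.9 and 126 CPM in the CLP libraries and 4.97, 9.496 and 8.36 CPM in the MPP libraries (log2 fold change 3.65, SE 0.28, adjusted p = 2.7e-06 in edgeR). Its partner Rag2, at chr2:101624718-101632529, was at 67.8, 56.2 and 67.9 CPM in the CLP libraries and 3.7005, 12.4 and 15.6 CPM in the MPP libraries (log2 fold change 2.58, adjusted p = 0.00053 in edgeR). In MPPs Rag2 was lowest in replicate 1, and without that library the log2 fold change was 2.19. Dntt, terminal deoxynucleotidyl transferase, which adds bases at the joints of rearranged receptor genes, was abundant in both cell types: it was at 2206, 2522 and 2446 CPM in the CLP libraries and 376, 667 and 598 CPM in the MPP libraries (log2 fold change 2.13, adjusted p = 2e-05 in edgeR). Among 14 recombination and end-joining genes Rag1, Rag2, Dntt and Xrcc6 were called, all higher in CLPs, against 2.73% of all genes tested. Xrcc6, which encodes the Ku70 end-binding protein, was at 239, 192 and 254 CPM in the CLP libraries and 135, 89.6 and 100.1 CPM in the MPP libraries (log2 fold change 1.08, adjusted p = 0.0015 in edgeR). The other 10 members did not pass, and the median of the 14 was 0.23.

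The promoter of Rag1 is shown because Rag1 was among the genes with the smallest p and held the most matches of 6 genes searched, and because E-boxes are the sites read by the E proteins of lymphoid cells. The stretch, chr2:101649582-101649697 on the minus strand of GRCm38.p6 from RefSeq, holds 3 matches to CAGNTG on either strand, in capitals, between 135 and 85 bases before the start of transcription.
Rag1: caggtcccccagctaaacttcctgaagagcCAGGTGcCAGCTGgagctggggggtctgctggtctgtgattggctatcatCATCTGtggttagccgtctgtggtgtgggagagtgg
CAGNTG or its reverse complement was found within 250 bases before the start in 43.9% of the 289 promoters of genes higher in CLPs, in 41.5% of the 347 of genes higher in MPPs, in 37.1% of 10259 promoters of genes tested and in 44.8% of all 32851 promoters. Of the other genes searched Blnk held 2 matches, Il7r 1 and Hlf, which was higher in MPPs, 1, and neither Rag2 nor Ebf1 held any. A match describes the letters and does not show binding, and its place is counted from the RefSeq start, which for Rag1 lies 31 bases upstream of that of GENCODE.

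Regulators of this list were called as well. Satb1, a chromatin organizer of lymphoid genes, was at 809, 859 and 852 CPM in the CLP libraries and 502, 553 and 496 CPM in the MPP libraries (log2 fold change 0.699, adjusted p = 0.0069 in edgeR). Ikzf1, which encodes Ikaros, was at 910.5, 1037 and 1000.1 CPM in the CLP libraries and 491, 638 and 532 CPM in the MPP libraries (log2 fold change 0.83, adjusted p = 0.0015 in edgeR), and Mef2c, a factor that favours lymphoid over myeloid fate, was at 809 ± 96.99 CPM in CLPs and 435 ± 65.2 CPM in MPPs (SD, n = 3, log2 fold change 0.89, adjusted p = 0.0022 in edgeR). Both were higher in each CLP library than in any MPP library. Notch1, the receptor that starts the T-cell programme in the thymus, was at 1268, 1647 and 1352 CPM in the CLP libraries and 675, 693 and 502 CPM in the MPP libraries (log2 fold change 1.19, adjusted p = 0.00045 in edgeR). The other 3 calls of the list were lower in CLPs. They were Ltb, the lymphotoxin β subunit, at 3.53, 7.301 and 1.66 CPM in CLPs and 24.1, 20.9 and 27.2 CPM in MPPs, Il2rg, the common γ chain, at 39.3, 42.7 and 46.1 and 63.8, 70.8 and 87.4 CPM, and its kinase Jak3 at 185, 172 and 142 and 276, 303 and 224 CPM, with adjusted p of 0.006, 0.026 and 0.021 in edgeR. A single library moved the log2 fold change of Ltb from -2.51 to -3.22 without CLP replicate 2. Ccr9, Lax1 and Bcl11a did not pass the test. When each library was left out in turn, the call of Il2rg was lost without CLP replicate 1, 2 or 3 or MPP replicate 2 or 3 (0.11) and that of Jak3 without CLP replicate 2 or 3 or MPP replicate 2 (0.101), with the highest adjusted p of edgeR given in parentheses here and for the other groups.

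**Figure D3:**
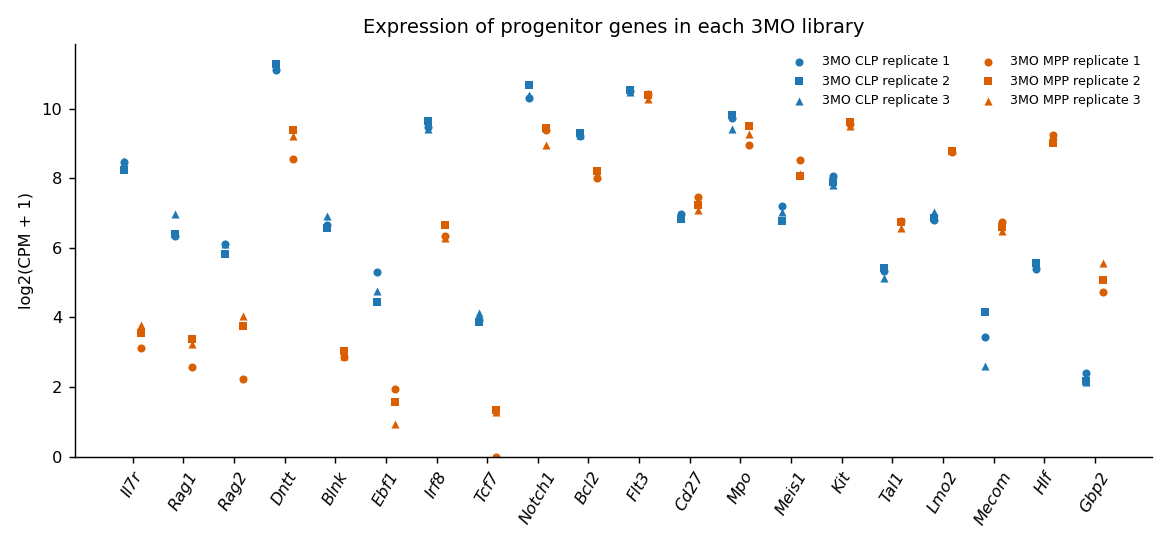
Expression of 20 genes in each 3MO library on a log2 scale (CPM with 1 added), with CLP libraries in blue and MPP libraries in orange and the marker giving the replicate. The groups overlap for Mpo and are apart for the other genes, though for Flt3 and Cd27 the distance is small and did not pass the test.

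B-lineage genes were uneven. Of 24 listed, 20 were tested, 5 were higher in CLPs and none in MPPs, against 2.73% and 3.34% of all genes tested. With the 6 libraries of 3MO alone 2 of 13 tested were called, with a median of 0.61. Blnk, the adaptor that links the pre-B receptor to its signal and lies at chr19:40928927-40994535, had the second smallest p of all genes: it was at 99.7, 93.7 and 119 CPM in the CLP libraries and 6.24, 7.27 and 6.45 CPM in the MPP libraries (log2 fold change 3.97, SE 0.23, adjusted p = 1.2e-07 in edgeR). The transcription factor gene Ebf1, at chr11:44617317-45008091, which directs B-cell specification, was at 38.2, 20.8 and 26.3 CPM in the CLP libraries and 2.85, 1.94 and 0.921 CPM in the MPP libraries (log2 fold change 3.92, SE 0.45, adjusted p = 7.6e-05 in edgeR). Pax5, which fixes B-cell commitment, had no count in any MPP library and was at 12.5, 0.498 and 1.34 CPM in CLPs, with most of it in replicate 1. Against the level that 3 counts over the MPP libraries would give, Pax5 was at least 59.8-fold higher in CLPs (adjusted p = 0.019 in edgeR), and without CLP replicate 1 at least 11.5-fold. Pax5 passed the count filter only with the 1MO libraries in the fit. With the 6 libraries of 3MO alone it was not tested. Blk, a Src-family kinase of B cells, was at 16.1, 20.8 and 33.4 CPM in the CLP libraries and 0, 2.88 and 4.68 CPM in the MPP libraries (log2 fold change 3.18, adjusted p = 0.024 in edgeR), and Spib, an Ets factor of B and plasmacytoid dendritic cells, at 9.28, 4.98 and 4.59 CPM in the CLP libraries and 0.74, 1.01 and 0.354 CPM in the MPP libraries (log2 fold change 3.15, adjusted p = 0.032 in edgeR). Vpreb1, a chain of the pre-B receptor, was under 1 CPM in each of the 6 libraries, and Vpreb2, Vpreb3 and Igll1 had too few counts to test. The median of the 20 was 1.90, or 1.25 with members at 0 in one group set at their bound. With libraries left out singly in edgeR, the call of Pax5 was lost without CLP replicate 1 or MPP replicate 2 or 3 (0.066), that of Blk without CLP replicate 3 or MPP replicate 2 (0.092) and that of Spib without any 1 of 6 of the 12 libraries (0.11). Without MPP replicate 3 the log2 fold change of Blk was 3.95.

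Immunoglobulin transcripts of the constant regions moved in both directions. Ighm was at 799.9, 774 and 675 CPM in the CLP libraries and 213, 314 and 236 CPM in the MPP libraries (log2 fold change 1.56, adjusted p = 3.1e-05 in edgeR) and Ighd at 34.4, 29.98 and 28.8 CPM in the CLP libraries and 2.33, 7.698 and 4.46 CPM in the MPP libraries (log2 fold change 2.67, adjusted p = 0.00072 in edgeR). Igkc, the κ light chain, was lower in CLPs, at 0.101, 0 and 0.554 CPM against 4.02, 9.28 and 10.99 CPM in MPPs (adjusted p = 0.038, edgeR), and Sdc1, also a plasma cell marker, was higher in CLPs at 95.04, 91.3 and 94.2 CPM against 38.8, 43.2 and 43.3 CPM (adjusted p = 0.0044, edgeR). In edgeR the call of Igkc was lost without CLP replicate 1 or 2 or MPP replicate 2 or 3 (0.12). Leaving out a library also moved the log2 fold change of Igkc from -5.19 to -4.55 without CLP replicate 2 and -7.38 without CLP replicate 3. The 9 plasma and mature B-cell markers summed to 855 to 975 CPM in CLPs and 301 to 443 CPM in MPPs, most of it Ighm. The part of mature cells in these values was not tested.

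T-lineage genes were in part too low to test. Of 18 listed, 10 were tested, and 3 were higher in CLPs, against 2.73% of all genes tested. Tcf7, the first T-lineage factor that Notch induces in the thymus, was at 14.1, 13.6 and 16.5 CPM in the CLP libraries and 0, 1.51 and 1.42 CPM in the MPP libraries (log2 fold change 3.85, adjusted p = 0.0024 in edgeR). Cd247, the CD3 ζ chain, was at 12.5, 14.5 and 16.4 CPM in the CLP libraries and 2.75, 3.31 and 2.27 CPM in the MPP libraries (log2 fold change 2.38, adjusted p = 0.003 in edgeR), and the kinase gene Lck at 76.8, 76.8 and 62.7 CPM in the CLP libraries and 46.7, 34.4 and 22.8 CPM in the MPP libraries (log2 fold change 1.06, adjusted p = 0.015 in edgeR). In contrast, Gata3 was at 5.85, 10.01 and 3.4003 CPM in the CLP libraries and 2.01, 11.4 and 7.09 CPM in the MPP libraries, and the groups overlapped (log2 fold change -0.09, SE 0.60). The direction of Gata3 changed with the libraries used. Bcl11b, the T-cell commitment factor, had too few counts to test. Of 28 Notch pathway genes tested, Notch1 was higher in CLPs and Mfng, a glycosyltransferase that modifies Notch, was lower, at 67.5, 53.04 and 73.1 CPM against 113, 119.998 and 94.3 CPM (adjusted p = 0.021, edgeR), while 26 did not pass and the median was -0.05; 1 of 28 each way is near the share of all genes called, 2.73% and 3.34%. Maml3, a coactivator of the pathway, was at 333 ± 47.9 CPM in CLPs and 180.1 ± 38.3 CPM in MPPs (SD, n = 3) and just missed the threshold (adjusted p = 0.052, edgeR). On leaving out a library in edgeR, the call of Lck was lost without MPP replicate 3 (0.057) and that of Mfng without CLP replicate 1 or 2 or MPP replicate 2 (0.091).

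Some dendritic and innate lymphoid genes were higher in CLPs, 3 of 10 tested of each list, and none was higher in MPPs. Of all genes tested these shares were 2.73% and 3.34%. Irf8, the interferon regulatory factor of dendritic cells and of B-cell precursors, at chr8:120736358-120756694, was at 706, 802 and 682 CPM in the CLP libraries and 80.6, 99.6 and 76.7 CPM in the MPP libraries (log2 fold change 3.09, SE 0.21, adjusted p = 8.9e-07 in edgeR). Siglech, a surface lectin of plasmacytoid dendritic cells, was at 51.7, 53.04 and 62.8 CPM in the CLP libraries and 0, 5.04 and 4.54 CPM in the MPP libraries (log2 fold change 4.08, adjusted p = 0.0012 in edgeR), and Itgax, which encodes CD11c, at 39.2, 39.6 and 41.8 CPM in the CLP libraries and 8.46, 13.8 and 4.89 CPM in the MPP libraries (log2 fold change 2.15, adjusted p = 0.00095 in edgeR). These were the 3 of 10 tested dendritic cell genes that were called, and the other 7 all had positive differences that did not pass. Without MPP replicate 1, 4 of 11 tested were called, with Tcf4 added (adjusted p = 0.027 in edgeR). Nfil3, needed for innate lymphoid and NK precursors, was at 37.5, 32.2 and 23.5 CPM in the CLP libraries and 4.76, 9.57 and 8.58 CPM in the MPP libraries (log2 fold change 2.02, adjusted p = 0.00062 in edgeR). The chains of the interleukin-18 receptor were both higher in CLPs: Il18rap was at 477, 442 and 452 CPM in the CLP libraries and 154, 192 and 198 CPM in the MPP libraries (log2 fold change 1.33, adjusted p = 7.8e-05 in edgeR) and Il18r1 at 82.3, 69.1 and 41.8 CPM in the CLP libraries and 28.8, 21.9 and 23.95 CPM in the MPP libraries (log2 fold change 1.37, adjusted p = 0.0058 in edgeR). The other 7 innate lymphoid genes did not pass. Id2, the inhibitor of E proteins in innate lymphoid cells, was at 7.06, 6.64 and 7.43 CPM in the CLP libraries and 0.952, 3.17 and 2.83 CPM in the MPP libraries, and did not pass (adjusted p = 0.1, edgeR). Mpeg1, which encodes the pore-forming protein perforin-2 of myeloid and dendritic cells, was at 1148, 1319.8 and 1369 CPM in the CLP libraries and 112, 169 and 149.6 CPM in the MPP libraries (log2 fold change 3.16, adjusted p = 7.8e-06 in edgeR).

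Most genes of stem cells and early progenitors were lower in CLPs. Of 25 tested, 16 were higher in MPPs and none in CLPs, 19 had every CLP library below every MPP library, against 3.34% and 11.7% of all genes tested, and the median log2 fold change was -1.89. Without MPP replicate 1, 14 of the 25 were called, all higher in MPPs. Hlf, a PAR bZIP factor that marks stem cells, lies at chr11:90336536-90390895 and had the smallest p of all genes: it was at 607, 519.8 and 609 CPM in MPPs and 41.5, 46.6 and 46.3 CPM in CLPs (log2 fold change -3.69, SE 0.19, adjusted p = 3.1e-08 in edgeR). Lmo2 and Tal1, partners in the transcription complex that founds the blood system, were both lower in CLPs. Lmo2 was at 431, 438 and 446 CPM in MPPs and 110.2, 114 and 131 CPM in CLPs (log2 fold change -1.89, adjusted p = 6.2e-06 in edgeR), and Tal1 at 108, 105 and 93.98 CPM in MPPs and 39.2, 41.6 and 34.003 CPM in CLPs (log2 fold change -1.42, adjusted p = 0.00011 in edgeR). Mecom, which encodes the stem cell factor EVI1, was at 107, 96.04 and 88.9 CPM in MPPs and 9.79, 16.7 and 5.14 CPM in CLPs (log2 fold change -3.196, adjusted p = 0.00017 in edgeR). The homeobox cofactor Meis1 was at 367, 266 and 276 CPM in MPPs and 146, 109 and 130.001 CPM in CLPs (log2 fold change -1.24, adjusted p = 0.0003 in edgeR), and Gata2, a zinc finger factor of stem cells, at 51.1, 71.6 and 83.8 CPM in MPPs and 29.1, 10.9 and 12.3 CPM in CLPs (log2 fold change -1.99, adjusted p = 0.002 in edgeR).

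The same list holds surface proteins and a ligand. Angpt1, the angiopoietin ligand of the Tie receptors, was at 433, 330.1 and 384 CPM in MPPs and 96.2, 121 and 99.6 CPM in CLPs (log2 fold change -1.86, adjusted p = 5.9e-06 in edgeR), and the orphan receptor gene Tie1 at 7.58 ± 1.32 CPM in CLPs and 43.3 ± 6.56 CPM in MPPs (SD, n = 3, log2 fold change -2.51, adjusted p = 0.00067 in edgeR). Procr, the protein C receptor that marks stem cells, was at 10.04, 10.4 and 11.5 CPM in MPPs and 0.303, 0.774 and 0 CPM in CLPs (log2 fold change -4.76, adjusted p = 0.001 in edgeR), and Esam, an endothelial adhesion molecule shared by stem cells, at 1.37, 5.76 and 7.23 CPM in MPPs and 0.101, 0 and 0.237 CPM in CLPs (log2 fold change -5.39, adjusted p = 0.0092 in edgeR). The levels of these in CLPs were near 0, and single libraries moved the log2 fold change of Procr from -4.76 to -6.17 without CLP replicate 2 and that of Esam from -5.39 to -4.72 without CLP replicate 2 and -6.64 without CLP replicate 3. Fgd5, Robo4, Cd34 and Erg were also among the 16. For Cd34 the levels were 634, 883 and 905 CPM in MPPs and 465, 573 and 469.9 CPM in CLPs, which gives a small difference (log2 fold change -0.68, adjusted p = 0.026 in edgeR). Slamf1, which encodes CD150, the marker of the long-term stem cell, was under 2 CPM in each of the 6 libraries and its direction changed with the libraries left out. Mycn was at 39.9 ± 1.26 CPM in CLPs and 38.3 ± 4.75 CPM in MPPs (SD, n = 3) and did not pass. Hoxa9 was lower in CLPs, at 109, 112 and 125 CPM in MPPs and 75.9, 55.6 and 51.1 CPM in CLPs (log2 fold change -0.92, adjusted p = 0.012 in edgeR), as the sole call among 8 HoxA genes tested, and Ikzf2, which encodes the Ikaros relative Helios, was at 229, 218 and 173 CPM in MPPs and 74.96, 81.8 and 59.1 CPM in CLPs (log2 fold change -1.52, adjusted p = 0.025 in edgeR), with an adjusted p of 0.058 in edgeR without MPP replicate 1. With 1 library fewer in edgeR, the call of Cd34 was lost without CLP replicate 1 or 3 or MPP replicate 2 or 3 (0.12), that of Erg without any 1 of 11 of the 12 libraries (0.17), that of Hoxa9 without CLP replicate 2 or 3 (0.062) and that of Ikzf2 without CLP replicate 1, 2 or 3 or MPP replicate 1 or 2 (0.102).

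**Figure D4:**
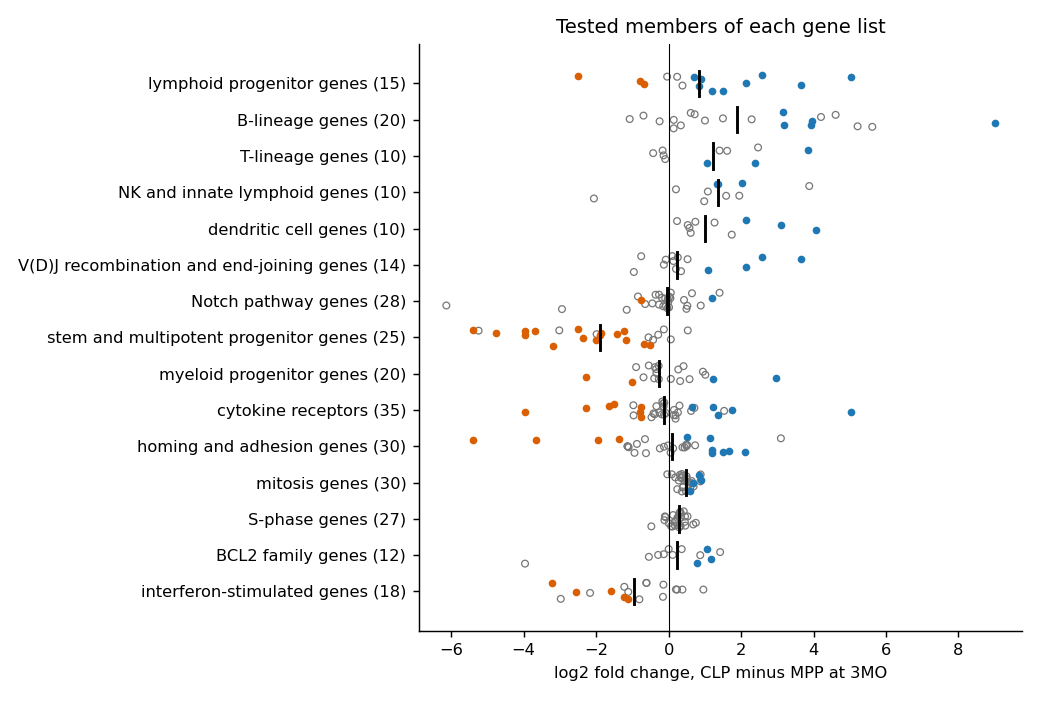
Log2 fold change of CLPs relative to MPPs at 3MO for the tested members of 15 gene lists, with the number tested in parentheses, 1 point a gene, filled blue where called higher in CLPs, filled orange where called higher in MPPs and open where not called, and a black bar at the median of the list. Stem and multipotent progenitor genes lie to the left with a median of -1.89 and 16 of 25 called; 9 of 15 lymphoid progenitor genes are called to the right, and mitosis genes are nearly all right of 0 with a median of 0.49.

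The other genes with the smallest p were of several kinds. Higher in CLPs were Cmah, the enzyme that makes N-glycolylneuraminic acid, at 895, 1088 and 907 CPM in the CLP libraries and 59.5, 129 and 69.8 CPM in the MPP libraries (log2 fold change 3.48, adjusted p = 5.9e-06 in edgeR), Tmem119, known as a marker of microglia, at 49.1, 69.9 and 49.9 CPM in the CLP libraries and 1.27, 2.16 and 0.425 CPM in the MPP libraries (log2 fold change 5.45, adjusted p = 5.9e-06 in edgeR), and Ctr9, a subunit of the PAF1 elongation complex, at 635, 725 and 547 CPM in the CLP libraries and 154, 192 and 168 CPM in the MPP libraries (log2 fold change 1.89, adjusted p = 5.9e-06 in edgeR). Cnn3, an actin-binding calponin, was at 205, 257 and 218 CPM in the CLP libraries and 23.4, 48.8 and 25.9 CPM in the MPP libraries (log2 fold change 2.79, adjusted p = 1.2e-05 in edgeR). Each of these was apart between the groups with no overlap. Omitting a library moved the log2 fold change of Tmem119 from 5.45 to 6.13 without MPP replicate 2. Higher in MPPs were the adhesion receptor gene Adgrl4 at 880.3, 1045 and 1022 CPM in MPPs and 219.8, 282 and 292 CPM in CLPs (log2 fold change -1.89, adjusted p = 5.9e-06 in edgeR), Gcnt2, a glycosyltransferase, at 633, 510.4 and 474 CPM in MPPs and 119.8, 114 and 127 CPM in CLPs (log2 fold change -2.16, adjusted p = 7.4e-06 in edgeR), and the carbonic anhydrase gene Car2 at 196, 201 and 239 CPM in MPPs and 34.001, 30.4 and 36.3 CPM in CLPs (log2 fold change -2.66, adjusted p = 7.4e-06 in edgeR). Mmrn1, a platelet and endothelial protein, was at 55.6, 42.7 and 37.8 CPM in MPPs and 7.16, 7.41 and 7.196 CPM in CLPs (log2 fold change -2.64, adjusted p = 1.2e-05 in edgeR), and the mucin gene Muc13 at 123, 172 and 166 CPM in MPPs and 27.2, 36.7 and 40.6 CPM in CLPs (log2 fold change -2.14, adjusted p = 3.1e-05 in edgeR).

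Among genes whose higher group averaged at least 10 CPM, the largest fitted folds rested on near-absent levels in the other group. Stum was at 17.5, 10.5 and 28.8 CPM in the CLP libraries and 0, 0.36 and 0.213 CPM in the MPP libraries, Cd22, an inhibitory lectin of B cells, at 3.13, 8.79 and 23.01 CPM in the CLP libraries and 0, 0.432 and 0 CPM in the MPP libraries, and Strip2 at 11.1, 12.4 and 9.49 CPM in the CLP libraries and 0, 0.216 and 0 CPM in the MPP libraries, with 8, 6 and 3 counts in all MPP libraries together. Ttn, the giant muscle protein titin, was at 5.65, 1099 and 6.01 CPM in the CLP libraries and 2.54, 0 and 0.213 CPM in the MPP libraries, so that the size rests on CLP replicate 2, and DESeq2 gave it no adjusted p. In the other direction Klf12 was at 45.8, 15.5 and 13.9 CPM in MPPs and 0, 1.604 and 0 CPM in CLPs, the imprinted non-coding RNA Meg3 at 10.6, 16.3 and 14.3 CPM in MPPs and 0, 0 and 1.03 CPM in CLPs and the scramblase gene Plscr4 at 13.005, 13.6 and 11.1 CPM in MPPs and 0, 0 and 1.19 CPM in CLPs, each with counts in a single CLP library. Gm14288 had no count in CLPs and was at 2.01, 9.64 and 22.7 CPM in MPPs, which is at least 155-fold higher in MPPs against the level of 3 counts over the CLP libraries (adjusted p = 0.017 in edgeR). Among these, the call of Ttn was lost without CLP replicate 2 or MPP replicate 2 or 3 (0.46), that of Meg3 without CLP replicate 1 or MPP replicate 2 or 3 (0.078) and that of Gm14288 without CLP replicate 2 or 3 (0.054) in edgeR. Leaving out a library moved the log2 fold change of Cd22 from 6.15 to 5.201 without CLP replicate 3 and 10.31 without MPP replicate 2 and 5.55 without MPP replicate 3, that of Strip2 from 6.98 to 10.22 without MPP replicate 2 and that of Stum from 6.45 to 7.16 without MPP replicate 2. Among genes higher in MPPs, omissions moved the log2 fold change of Klf12 from -5.35 to -11.37 without CLP replicate 2 and -4.600 without MPP replicate 1, that of Meg3 from -5.302 to -4.67 without CLP replicate 2 and -10.56 without CLP replicate 3, that of Plscr4 from -4.98 to -4.32 without CLP replicate 2 and -10.43 without CLP replicate 3 and that of Gm14288 from -10.29 to -9.31 without MPP replicate 3. The bound of Gm14288 was 78.9-fold without MPP replicate 3. With the 6 libraries of 3MO alone Plscr4 was not called (adjusted p = 0.055 in edgeR). Omissions also moved the log2 fold change of Ttn from 8.89 to 9.49 without CLP replicate 1 and 2.69 without CLP replicate 2 and 11.64 without MPP replicate 1 and 8.22 without MPP replicate 2.

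Myeloid genes did not move as a group. Of 20 tested, 2 were higher in each cell type, against 2.73% of all genes tested higher in CLPs and 3.34% in MPPs. The median was -0.27, and without MPP replicate 1, 1 was higher in CLPs and 3 in MPPs. Csf3r, the receptor for G-CSF, was at 252, 185 and 167 CPM in MPPs and 38.3, 46.8 and 38.7 CPM in CLPs (log2 fold change -2.28, adjusted p = 0.00011 in edgeR), and Prtn3, a granule protease, at 42.2, 78.8 and 100.3 CPM in MPPs and 39.6, 40.2 and 29.5 CPM in CLPs (log2 fold change -1.02, adjusted p = 0.043 in edgeR). Higher in CLPs were Ly86, the partner of the CD180 receptor on B cells and macrophages, at 28.3, 42.03 and 35.2 CPM in the CLP libraries and 2.01, 5.76 and 5.46 CPM in the MPP libraries (log2 fold change 2.98, adjusted p = 0.00021 in edgeR), and Csf1r, the receptor for M-CSF, at 47.2, 112 and 80.9 CPM in the CLP libraries and 20.9, 41.9 and 39.7 CPM in the MPP libraries (log2 fold change 1.23, adjusted p = 0.023 in edgeR), though without MPP replicate 1 the adjusted p of Csf1r was 0.07 in edgeR. Over the libraries left out in edgeR, the call of Prtn3 was lost without any 1 of 9 of the 12 libraries (0.18) and that of Csf1r without CLP replicate 2 or 3 or MPP replicate 1 (0.12). Mpo, myeloperoxidase, was at 857, 903 and 684 CPM in the CLP libraries and 498, 722 and 617 CPM in the MPP libraries and did not pass (adjusted p = 0.23, edgeR), nor did Cebpa, the factor of granulocyte fate, at 34.001, 42.3 and 36.1 CPM in the CLP libraries and 43.7, 69.1 and 68.96 CPM in the MPP libraries (adjusted p = 0.1, edgeR, and 0.033 without MPP replicate 1). None of 10 mature neutrophil and 8 macrophage genes tested was called in edgeR or DESeq2, and 0 had an unadjusted p under 0.05 in edgeR. The neutrophil markers summed to 38.9 to 120.0 CPM in CLPs and 57.7 to 177 CPM in MPPs, with the defining genes Ngp and S100a8 at most 56.8 and 30.3 CPM.

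Markers of other lineages mostly did not pass the test. Of all genes tested, 2.73% were called higher in CLPs and 3.34% higher in MPPs. Of 14 erythroid genes tested Car2 was called. The erythroid markers summed to 75.1 to 158 CPM in CLPs and 224 to 399 CPM in MPPs, with the highest value in MPP replicate 3. Most of the sum in MPPs was Car2, and without it the list summed to 44.6 to 121 CPM in CLPs and 28.1 to 159 CPM in MPPs, which overlap. Of 9 bone stroma genes tested Col1a2 was called, at 5.92, 5.47 and 4.39 CPM in MPPs and 0, 0 and 1.66 CPM in CLPs (log2 fold change -3.26, adjusted p = 0.041 in edgeR), a call lost in DESeq2, and 5 of the 15 stroma genes were at 0 in all 6 libraries. With MPP replicate 1 left out, 0 of 13 stroma genes tested were called in edgeR, with 2 at an unadjusted p under 0.05. Of 8 endothelial genes Pecam1, the adhesion molecule CD31 that leukocytes share, was higher in CLPs at 299, 268 and 273 CPM in the CLP libraries and 163, 165 and 121 CPM in the MPP libraries (log2 fold change 0.902, adjusted p = 0.0034 in edgeR), and Emcn, an endothelial sialomucin also found on stem cells, was higher in MPPs at 10.3, 17.4 and 23.7 CPM in MPPs and 6.46, 4.59 and 3.16 CPM in CLPs (log2 fold change -1.86, adjusted p = 0.021 in edgeR). Library by library in edgeR, the call of Col1a2 was lost without any 1 of 7 of the 12 libraries (0.12) and that of Emcn without CLP replicate 2 or 3 or MPP replicate 2 or 3 (0.089). CLP replicate 3 was the only CLP library with counts of Col1a2, and the fits moved the log2 fold change of Col1a2 from -3.26 to -2.55 without CLP replicate 2 and -9.17 without CLP replicate 3. The part of other cell types in these results was not tested.

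Receptors for cytokines split in direction. Of 35 tested, 5 were higher in CLPs and 7 in MPPs, against 2.73% and 3.34% of all genes tested. The median was -0.14, and without MPP replicate 1 the calls were 4 and 6. Il7r and Kit, whose proteins were used for the sort, are among these calls. Beside Il7r, Il18r1 and Csf1r, CLPs had more Il6st, the gp130 chain of the interleukin-6 family, at 608, 659.6 and 510.3 CPM in the CLP libraries and 121, 289 and 113 CPM in the MPP libraries (log2 fold change 1.76, adjusted p = 0.0012 in edgeR), and Ifnar1, a chain of the type I interferon receptor, at 262, 267 and 205 CPM in the CLP libraries and 169.6, 161 and 138 CPM in the MPP libraries (log2 fold change 0.65, adjusted p = 0.027 in edgeR). Beside Kit, Csf3r and Il2rg, MPPs had more Il1r1 at 106 ± 12.2 CPM in CLPs and 181 ± 9.16 CPM in MPPs, Il12rb2 at 8.91 ± 0.868 CPM in CLPs and 25.6 ± 8.29 CPM in MPPs and Tgfbr2 at 54.7 ± 3.87 CPM in CLPs and 92.8 ± 21.1 CPM in MPPs (SD, n = 3), with adjusted p of 0.018, 0.016 and 0.028 in edgeR. Of these receptors, the call of Ifnar1 was lost without CLP replicate 1 or 2 or MPP replicate 2 or 3 (0.102), that of Il1r1 without CLP replicate 2 or 3 or MPP replicate 2 (0.075), that of Il12rb2 without CLP replicate 1 or 3 or MPP replicate 1 (0.067) and that of Tgfbr2 without CLP replicate 1, 2 or 3 or MPP replicate 2 or 3 (0.13) in edgeR.

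Homing and adhesion genes were also split, with 7 of 30 higher in CLPs and 4 in MPPs, against 2.73% and 3.34% of all genes tested. Without MPP replicate 1 the counts were 5 and 4. Selplg, the ligand of P-selectin on thymic vessels, was at 186, 232 and 175 CPM in the CLP libraries and 65.1, 90.8 and 101 CPM in the MPP libraries (log2 fold change 1.204, adjusted p = 0.0012 in edgeR). Cd93, a C-type lectin of early progenitors, was at 1655, 1994 and 1753 CPM in the CLP libraries and 719, 958 and 755 CPM in the MPP libraries (log2 fold change 1.15, adjusted p = 0.00024 in edgeR), and Itga4, the α4 integrin chain that binds VCAM-1, at 1461 ± 66.3 CPM in CLPs and 635 ± 63.2 CPM in MPPs (SD, n = 3, log2 fold change 1.201, adjusted p = 0.00042 in edgeR). The chemokine receptor gene Ccr7, which takes part in thymus seeding, was at 9.89, 14.3 and 14.2 CPM in the CLP libraries and 2.85, 5.68 and 3.54 CPM in the MPP libraries (log2 fold change 1.66, adjusted p = 0.033 in edgeR), but without MPP replicate 1 it did not pass (adjusted p = 0.089 in edgeR). Ccr9, the other such receptor, was at 29.1, 42.2 and 23.6 CPM in the CLP libraries and 22.8, 31.8 and 18.1 CPM in the MPP libraries, and the groups overlapped (adjusted p = 0.55, edgeR). Cx3cr1 and Cd47 were the remaining calls in CLPs. Of the calls in CLPs, the call of Ccr7 was lost without any 1 of 7 of the 12 libraries (0.11) and that of Cd47 without any 1 of 10 of the 12 libraries (0.15) in edgeR. Higher in MPPs were Itga6, the α6 integrin chain, at 148, 139.6 and 168 CPM in MPPs and 47.5, 65.2 and 62.9 CPM in CLPs (log2 fold change -1.38, adjusted p = 0.00021 in edgeR), S1pr1, the sphingosine-1-phosphate receptor that guides egress, at 12.3, 9.14 and 14.8 CPM in MPPs and 0.202, 1.49 and 1.03 CPM in CLPs (log2 fold change -3.67, adjusted p = 0.00072 in edgeR), and Cd9, a tetraspanin, at 20.2, 8.99 and 14.8 CPM in MPPs and 3.63, 3.32 and 4.51 CPM in CLPs (log2 fold change -1.94, adjusted p = 0.0062 in edgeR), beside Esam. With the 6 libraries of 3MO alone the adjusted p of edgeR was 0.057 for Cd9 and 0.07 for Esam.

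Of the cell cycle and survival genes 4 of 30 mitosis, 0 of 27 S-phase, 3 of 11 cyclin and inhibitor and 3 of 12 BCL2 family genes were called in edgeR, all higher in CLPs, against 2.73% of all genes tested. Of 30 mitosis genes, 29 had a positive difference, 17 had every CLP library above every MPP library, against 10.1% of all genes tested, and the median was 0.49. Cenpe, a centromere motor, was at 392, 299.8 and 298 CPM in the CLP libraries and 199.5, 177 and 160.2 CPM in the MPP libraries (log2 fold change 0.88, adjusted p = 0.0084 in edgeR), and Top2a, topoisomerase II, at 1563, 1543 and 1445 CPM in the CLP libraries and 1008, 1038 and 955 CPM in the MPP libraries (log2 fold change 0.601, adjusted p = 0.009 in edgeR). Hmmr and Cenpf were the other calls. Without MPP replicate 1, 9 of the 30 were called higher in CLPs, and without replicate 1 of both cell types 3, while DESeq2 called 11. Of 27 S-phase genes 23 had a positive difference, with a median of 0.29, 9 had an unadjusted p under 0.05 in edgeR and 3 were called in DESeq2. Among cyclins and inhibitors CLPs were higher in Ccnd2, cyclin D2, at 899, 1025 and 991 CPM in the CLP libraries and 534, 561 and 446 CPM in the MPP libraries (log2 fold change 0.92, adjusted p = 0.00097 in edgeR), its kinase Cdk6 at 3406, 2702 and 2865 CPM in the CLP libraries and 2187, 1881 and 1412 CPM in the MPP libraries (log2 fold change 0.71, adjusted p = 0.037 in edgeR) and the inhibitor gene Cdkn1a, which encodes p21, at 34.2, 29.6 and 39.8 CPM in the CLP libraries and 7.08, 9.21 and 13.8 CPM in the MPP libraries (log2 fold change 1.78, adjusted p = 0.0013 in edgeR). Without MPP replicate 1, 2 of the 12 BCL2 family genes were called. Bcl2, the survival factor, was at 597, 636 and 609 CPM in the CLP libraries and 255, 293 and 270.1 CPM in the MPP libraries (log2 fold change 1.17, adjusted p = 0.0012 in edgeR). Also higher in CLPs were Bid, at 65.4, 65.9 and 54.3 CPM in the CLP libraries and 43.7, 28.8 and 36.1 CPM in the MPP libraries (log2 fold change 0.77, adjusted p = 0.041 in edgeR), and Bcl2l11, which encodes the death factor BIM, at 107, 68.9 and 55.6 CPM in the CLP libraries and 43.6, 37.4 and 29.6 CPM in the MPP libraries, the last with an adjusted p of 0.049 and, without MPP replicate 1, 0.055 in edgeR. Several of these depended on the set of libraries, as the call of Cenpf was lost without CLP replicate 1 or 3 or MPP replicate 2 (0.079), that of Cdk6 without any 1 of 7 of the 12 libraries (0.13), that of Bid without any 1 of 10 of the 12 libraries (0.15) and that of Bcl2l11 without any 1 of 9 of the 12 libraries (0.2004) in edgeR.

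Some interferon-stimulated genes were lower in CLPs. Of 18 tested, 5 were higher in MPPs, against 3.34% of all genes tested, and none in CLPs, against 2.73%. The other 13 did not pass, 4 of them with positive differences. In 10 every CLP library was below every MPP library, against 11.7% of all genes, and the median was -0.96. Gbp2, a GTPase induced by interferon, at chr3:142620602-142638008, was at 25.5, 32.8 and 46.2 CPM in MPPs and 4.34, 3.54 and 3.4003 CPM in CLPs (log2 fold change -3.22, SE 0.32, adjusted p = 2.2e-05 in edgeR). Ifit1, which binds foreign RNA caps, was at 13.4, 17.3 and 18.5 CPM in MPPs and 2.12, 4.65 and 1.502 CPM in CLPs (log2 fold change -2.55, adjusted p = 0.012 in edgeR), and Rsad2, the antiviral enzyme viperin, at 14.6, 25.1 and 34.1 CPM in MPPs and 3.33, 9.13 and 12.1 CPM in CLPs (log2 fold change -1.58, adjusted p = 0.029 in edgeR). Oasl2 was at 90.7, 62.8 and 92.3 CPM in MPPs and 22.5, 42.9 and 39.9 CPM in CLPs (log2 fold change -1.22, adjusted p = 0.0055 in edgeR), and Ifit2 at 56.6, 47.6 and 47.1 CPM in MPPs and 14.02, 28.5 and 27.3 CPM in CLPs (log2 fold change -1.11, adjusted p = 0.028 in edgeR), which did not pass without MPP replicate 1 (adjusted p = 0.07 in edgeR). The same list summed to 432 to 582 CPM in CLPs and 630 to 746 CPM in MPPs. Stat2 and Irf9, which carry the interferon signal to the nucleus, did not pass the test. Without MPP replicate 1, 6 of the 18 were higher in MPPs, and without replicate 1 of both cell types, or with the 6 libraries of 3MO alone, 3. In single-library omissions the call of Ifit1 was lost without CLP replicate 1 or 3 (0.053), that of Rsad2 without CLP replicate 1 or 2 or MPP replicate 2 or 3 (0.12) and that of Ifit2 without CLP replicate 1 or MPP replicate 1, 2 or 3 (0.11) in edgeR. Leaving out a library also moved the log2 fold change of Ifit1 from -2.55 to -3.18 without CLP replicate 2.

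Promoters of Ifit1 and Rsad2 are shown because they hold the letters read by interferon regulatory factors, a pair of GAAA with 2 bases between, on either strand and in capitals, with up to 30 bases on each side (RefSeq, GRCm38.p6). The Ifit1 stretch is chr19:34640755-34640843 on the plus strand, with matches 104 and 85 bases before the RefSeq start of transcription, which GENCODE places 18 bases upstream. That of Rsad2 is chr12:26456533-26456602 on the minus strand, with the match 120 bases before.
Ifit1: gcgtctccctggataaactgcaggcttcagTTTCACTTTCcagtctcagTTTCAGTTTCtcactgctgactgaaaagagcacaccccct
Rsad2: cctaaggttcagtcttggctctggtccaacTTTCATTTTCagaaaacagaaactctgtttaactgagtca
Gbp2 also held a match, 59 bases before its RefSeq start, which lies within the gene by GENCODE, whose start is 61 bases upstream. Of the 18 tested interferon-stimulated genes 14 had a promoter in the table and 8 of these held the element. Only 3 of the 8 were called, and the rest of the 8 did not pass the test. Of the 5 called genes, Oasl2 and Ifit2 had no match in this window. The element was found in 6.05% of the promoters of genes higher in MPPs (21 genes), in 2.08% of those higher in CLPs (6 genes), in 2.72% of the promoters of genes tested and in 2.98% of all promoters. Among the 21 were also Mecom, Mmrn1, Oas3, Ddx60 and Slfn5, and among the 6 was Ebf1.

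The same comparison in the 1MO libraries called 719 genes (5.38% of those tested), and 490 genes were called at both ages in the same direction, which is 60.3% of the 3MO calls and 68.2% of the 1MO calls. Of the 812 genes called at 3MO, 803 had the same sign at 1MO (98.9%), against 68.8% of all genes tested. The libraries of the ages are separate, but they share 1 fit and its estimate of the spread. The gene called in opposite directions was Col1a2, with a log2 fold change of -3.26 at 3MO and 2.699 at 1MO. Hlf was at -3.69 and -3.91, Il7r at 5.02 and 5.19, Irf8 at 3.09 and 3.58, and Rag1 at 3.65 and 4.42 at the respective ages. The difference between the ages in the CLP to MPP difference called 0 genes in edgeR, 429 at an unadjusted p under 0.05, and 7 genes in DESeq2. These 429 are a smaller share of the 13367 genes tested than the 0.05 that would fall there if no gene differed. Differences with a small unadjusted p included Ebf1, with log2 fold changes of 3.92 and 7.14 (unadjusted p = 0.00019 in edgeR), Blk with 3.18 and 8.12 (0.0034), Gbp2 with -3.22 and -1.94 (0.0076), S1pr1 with -3.67 and -1.28 (0.0041), and Mycn with 0.06 and -1.74 (1.8e-05). None of these passed adjustment over all genes. At 1MO Ebf1 was at 63.7 ± 11.8 CPM in CLPs and 0.487 ± 0.356 CPM in MPPs (SD, n = 3), so its fold there rests on few counts in MPPs. Mycn was chosen after its values were seen.

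**Figure D5:**
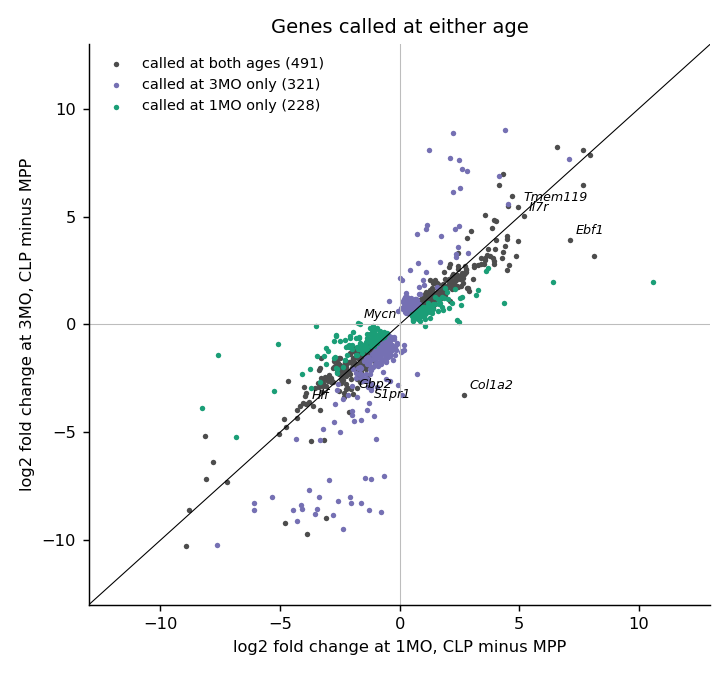
Log2 fold change of CLPs relative to MPPs at 3MO against that at 1MO for genes called at either age, 1 point a gene, with the diagonal marking equal values: 491 genes called at both ages, 321 at 3MO only and 228 at 1MO only. Nearly all points have the same sign at both ages, and Col1a2 lies in the lower right.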

How the data were processed

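Ly6d- CLPs and Flk2+ MPPs of 3MO and 1MO mice were measured by RNA sequencing in 12 libraries, 3 for each of 4 groups. The authors made polyadenylated, stranded libraries and processed the reads with Trim Galore, UMI-tools, SortMeRNA, STAR and Salmon under nf-core; the build is mm10 per the submitters' processing notes, and the annotation release is not given in the sources used here. The deposited values are estimated counts per gene, scaled by the authors for transcript length and not for depth. Every column was matched to a sample by name.

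Estimated counts were rounded and tested with edgeR 4.0.16 in R 4.3.3 (filterByExpr, TMM, quasi-likelihood test, 1 fit of 4 groups, Benjamini-Hochberg adjusted p under 0.05 over 13367 of 32285 genes). The fit shares its spread over all 12 libraries. The study names DESeq2 for its tests, and DESeq2 1.42.0 was an alternative. Gene positions are GENCODE M21 on GRCm38, which held 32235 of the genes. CPM limits are set by the totals of the libraries, and a group at 0 was given 3 counts over its libraries as its limit, which covers counting error only (0.0738 CPM in CLPs, 0.0801 CPM in MPPs). Tested symbols on more than 1 row (7) were not named. The script was tested on simulated counts. It recovered 36 of 100 genes changed 2-fold and 81 of 100 changed 4-fold, with 8 unchanged genes called. A gene that did not pass may thus still differ.

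Genes are named by a rule: a fixed set of sort markers and lineage regulators, for each direction the 10 smallest adjusted p and the 5 largest folds with a mean of at least 10 CPM among called genes whose groups do not overlap, the 3 smallest p of each of 30 lists, and the members of counts of 5 or fewer. Other genes named as called members of a list, and those in the closing section, were chosen after their values were seen. Lists were written from general knowledge. The comparison, the members and the lists were chosen with earlier results of these data known. Alternatives were DESeq2's size factors and Wald test, other filters, replicate blocks, only the 6 libraries of an age, a 2-fold minimum, thinned libraries and each library left out. Mx1 and Mx2 were not analysed here, and some genes that the naming rule selects are not reported here.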

Additional observations from a re-analysis of the deposited data

How the results depend on the processing

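Among the 112 named genes called at 3MO, 65 kept their call in all alternatives that gave a value, 47 lost it in at least 1, and none changed direction; without MPP replicate 1, 12 lost it. Leaving out 1 library at a time gave 553 to 881 genes that differ at 3MO, 242 to 382 higher in CLPs and 295 to 499 higher in MPPs, the lowest without CLP replicate 1 for the first and last and without MPP replicate 3 for the second. The ranges were 460 to 887 for the calls at 1MO, 353 to 469 for genes called at both ages, and 0 to 1 for the difference between ages. DESeq2's Wald test called 1427 genes at 3MO (621 higher in CLPs, 806 in MPPs), 1230 at 1MO, 783 at both ages and 7 for the difference between ages. Testing every gene with a count called 6 for that difference. The 6 libraries of 3MO alone gave 435 calls (210 and 225) and those of 1MO alone 900, and 28 of 111 named calls with a value at 3MO were lost; the cause was not tested. A 2-fold minimum left 605, of them 230 higher in CLPs, and moved the share higher in CLPs from 45.0% to 38.0%. With replicate 1 of both cell types left out, an alternative chosen after seeing the data, 522 genes were called (243 and 279).

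Equal replicate numbers are not stated to share a mouse or an experiment, although both populations were sorted from each mouse, and deviations of same-numbered 3MO libraries correlated at 0.0871, 0.00979 and 0.0891 over genes. A replicate block of the number called 1007 genes (478 and 529) and a replicate block of age and number 921 (433 and 488); among the named genes called, Spib and Prtn3 lost their calls under the second. The log2 fold change of Gata3 became positive, at 0.040 and 0.051 under these blocks, 0.21 without CLP replicate 3 and 0.49 without MPP replicate 2, with a range of -0.57 to 0.49 over libraries left out; that of Slamf1 became 0.17 and 0.46 without CLP replicates 1 and 2 and 0.62 without MPP replicate 3, with a range of -2.10 to 0.62. That of Mycn, not called, became -0.028 without MPP replicate 3, with a range of -0.028 to 0.15. The cause was not tested. At this depth genes under about 1 CPM rest on few counts.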

Other observations

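Other gene groups held 1 or 2 calls each, where 2.73% of all genes tested were called higher in CLPs and 3.34% higher in MPPs. Of 10 MHC class II genes tested, H2-Ob, the inhibitory chain of the peptide-loading machinery, was higher in CLPs at 234, 193 and 231 CPM in the CLP libraries and 87.01, 124 and 125 CPM in the MPP libraries (log2 fold change 0.97, adjusted p = 0.0089 in edgeR), the other 9 had negative differences that did not pass, and the median was -0.27. Ciita, the transactivator of these genes, was at 4.14, 2.21 and 2.14 CPM in the CLP libraries and 7.295, 9.14 and 9.14 CPM in the MPP libraries (adjusted p = 0.16, edgeR). Of 7 E protein and Id genes tested, Lmo2 and Tal1 were called higher in MPPs, joined by Tcf4 higher in CLPs without MPP replicate 1 (adjusted p = 0.027 in edgeR), and with all libraries the E protein genes Tcf3, Tcf4 and Tcf12 did not pass, with log2 fold changes of 0.34, 0.53 and 0.05. Of 18 immediate early and heat shock genes tested, Ier3 and Dusp1 were called higher in MPPs, at 20.6, 12.3 and 11.9 CPM in MPPs and 6.05, 3.65 and 1.502 CPM in CLPs and 56.9, 25.5 and 29.8 CPM in MPPs and 19.8, 5.199 and 8.07 CPM in CLPs. Both calls were lost without MPP replicate 1 (adjusted p = 0.088 and 0.15 in edgeR). With libraries omitted in turn, the call of Ier3 was lost without CLP replicate 2 or 3 or MPP replicate 1 or 2 (0.1003) and that of Dusp1 without any 1 of 8 of the 12 libraries (0.15), with the highest adjusted p of edgeR in parentheses. Without CLP replicate 1 the log2 fold change of Dusp1 moved from -1.77 to -2.48.

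The following genes were chosen after their values were seen. Higher in CLPs were Cd28, a T-cell costimulator, at 32.2, 32.96 and 37.9 CPM in the CLP libraries and 0, 0.863 and 2.69 CPM in the MPP libraries (log2 fold change 4.78, adjusted p = 0.00027 in edgeR), Tlr9, the endosomal DNA sensor, at 10.4, 26.05 and 15.9 CPM in the CLP libraries and 3.38, 5.97 and 2.91 CPM in the MPP libraries (log2 fold change 2.09, adjusted p = 0.0089 in edgeR), and Socs2, an inhibitor of cytokine signals, at 28.6, 35.1 and 32.7 CPM in the CLP libraries and 6.24, 7.55 and 2.91 CPM in the MPP libraries (log2 fold change 2.53, adjusted p = 0.0003 in edgeR). Higher in MPPs were the interferon-induced membrane genes Ifitm1, at 34.5, 58.3 and 76.2 CPM in MPPs and 2.02, 12.6 and 4.43 CPM in CLPs (log2 fold change -3.12, adjusted p = 0.0014 in edgeR), and Ifitm3, at 36.7, 73.1 and 84.7 CPM in MPPs and 13.3, 16.9 and 19.6 CPM in CLPs (log2 fold change -1.96, adjusted p = 0.0036 in edgeR), and the RNA sensor gene Ddx58, which encodes RIG-I, at 129, 132 and 123 CPM in MPPs and 50.04, 59.7 and 40.2 CPM in CLPs (log2 fold change -1.36, adjusted p = 0.00022 in edgeR). Single libraries moved the log2 fold change of Cd28 from 4.78 to 6.12 without MPP replicate 3 and that of Ifitm1 from -3.12 to -4.11 without CLP replicate 2. With the 6 libraries of 3MO alone Tlr9 was not called (adjusted p = 0.051 in edgeR).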
